A study of Mus musculus with 10 samples.

Results

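The immediate early response genes are described here across 10 microarrays of mouse inner ear: the AP-1 transcription factor genes Fos, Fosb, Jun and Junb, the related Atf3, the transcription factor genes Egr1 and Nr4a1, and Ier2, Btg2 and Dusp1. A gene was taken as measured where a probe set of the platform annotation named it and no other gene. That held for 9 of the 10 genes, out of 29766 genes measured in this way. The 1 probe set that names Junb also names Prdx2, a peroxiredoxin gene, so no value is given for Junb. RNA came from inner ear tissue, labelled as cochlea, of CBA/CaJ mice aged 6 months with normal hearing, a strain that loses hearing late in life and is used to study hearing loss with age. All mice lived alone in their cage, and 5 arrays are from mice with a running wheel (runners) and 5 from mice without one (controls). No genetic change is labelled in either group. The comparison asks how the inner ear of young adult mice differed after long-term voluntary running. Whether each array stands for its own animal is not labelled, and p-values therefore cover only the spread among these arrays, part of which may be technical. The sources used here do not give the hour of sampling or the time since the last run. The lowest array weight in limma was that of runner 1 (0.468), followed by runner 2 (0.574). Without runner 1, 99 genes passed an adjusted p under 0.05 in limma, where 2 of 29766 did with it. Leaving out runner 1 was chosen with results of these data known, and no measure used here marks it as an outlier. Some results are therefore also given without runner 1.

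Immediate early genes are transcribed within minutes of a stimulus, because the factors that switch them on are already in the cell and need only to be phosphorylated. Serum response factor with its ternary complex partners, and the cAMP response element binding protein CREB, are the best known of these factors. Many of the products are themselves transcription factors that carry the signal on to later genes, while others, such as the phosphatase encoded by Dusp1, shut the signal off, and both messengers and proteins are short-lived. In the cochlea several of these genes are known to rise after loud noise.

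The bases just upstream of 4 members that are compared pair by pair in the results are shown here, to give the sequence context of the genes compared. Each window covers the 250 bases before the annotated start, 5′ to 3′ on the gene's own strand, from RefSeq (build GRCm38.p6). Capitals mark the core of the cAMP response element, TGACG, or its reverse complement CGTCA. The windows are Fos at chr12:85473640-85473889 (plus strand), Dusp1 at chr17:26508473-26508722 (minus strand), Nr4a1 at chr15:101266596-101266845 (plus strand) and Fosb at chr7:19310046-19310295 (minus strand).
Fos: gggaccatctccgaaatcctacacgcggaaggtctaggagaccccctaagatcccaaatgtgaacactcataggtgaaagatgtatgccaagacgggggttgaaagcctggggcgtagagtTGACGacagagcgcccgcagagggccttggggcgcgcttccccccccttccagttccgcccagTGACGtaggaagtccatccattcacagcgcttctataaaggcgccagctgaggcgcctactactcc
Dusp1: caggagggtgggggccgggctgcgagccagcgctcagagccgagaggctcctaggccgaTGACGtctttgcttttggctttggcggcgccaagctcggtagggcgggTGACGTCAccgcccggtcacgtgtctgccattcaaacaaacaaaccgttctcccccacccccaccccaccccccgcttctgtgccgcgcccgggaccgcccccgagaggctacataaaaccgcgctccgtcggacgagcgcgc
Nr4a1: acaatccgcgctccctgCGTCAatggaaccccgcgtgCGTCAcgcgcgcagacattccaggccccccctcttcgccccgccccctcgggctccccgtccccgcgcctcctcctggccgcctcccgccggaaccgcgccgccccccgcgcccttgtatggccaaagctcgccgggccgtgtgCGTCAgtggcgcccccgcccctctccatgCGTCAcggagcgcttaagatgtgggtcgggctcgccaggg
Fosb: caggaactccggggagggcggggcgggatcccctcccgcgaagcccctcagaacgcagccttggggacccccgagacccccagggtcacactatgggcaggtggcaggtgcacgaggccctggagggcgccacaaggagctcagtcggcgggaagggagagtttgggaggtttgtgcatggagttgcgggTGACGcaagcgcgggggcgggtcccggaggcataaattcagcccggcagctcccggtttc
The Fos window held 2 cores, at 129 to 125 and at 66 to 62 bases before the start, and a TATA box (TATAAA) at 33 to 28 bases, a motif in 12.4% of all windows. The Dusp1 window held 3 cores, of which 2 overlap on opposite strands as the full element TGACGTCA at 143 to 136 bases before the start. The Nr4a1 window held 4 cores, all on the other strand, and the Fosb window held 1, at 60 to 56 bases. Of the 9 measured members, 7 had a window in the table, which left Egr1 and Ier2 without one. On either strand, 6 of the 7 windows held the core, all but that of Jun, against 17.8% of 32851 windows of all genes. The full element was in 2 of the 7 (Btg2 and Dusp1) against 1.55%, and the EGR site GCGNGGGCG was in 3 (Btg2, Fosb and Nr4a1) against 4.70%. The AP-1 site TGANTCA, found in 6.75% of all windows, and the CArG box, found in 1.47%, were in 0 of the 7. Bases farther upstream than these windows, and variants of the motif letters, were not searched, so a count of 0 does not show that a gene lacks the site. These matches describe letters in these windows and do not show binding. The core and the EGR site both contain CG, and the windows of all genes were not matched to those of the members for base composition. The shares therefore do not show an excess beyond base composition.

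None of the members passed the test across all genes between runners and controls. Of the 9 measured genes, 0 passed an adjusted p under 0.05 in limma, with values adjusted over all 29766 genes, of which 0.00672% passed. At an unadjusted p under 0.05, 1 member (Btg2) was lower in runners, where 3.92% of all genes were, and 0 were higher, where 3.21% of all genes were. For 0 members did the 2 groups stand apart without overlap, against 0.927% of all genes. The mean was lower in runners for 6 members and higher for 3, and the median log2 difference over the 9 was -0.083, beside 0.00091 over all genes tested. The count at an unadjusted p under 0.05 rested on single arrays. It was 4 without control 4, 2 without runner 1, and 0 without control 1, control 2, control 5, runner 4 or runner 5. In whole tissue, fewer cells of a type and less RNA per cell cannot be told apart, which holds for every difference given here.

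**Figure D1:**
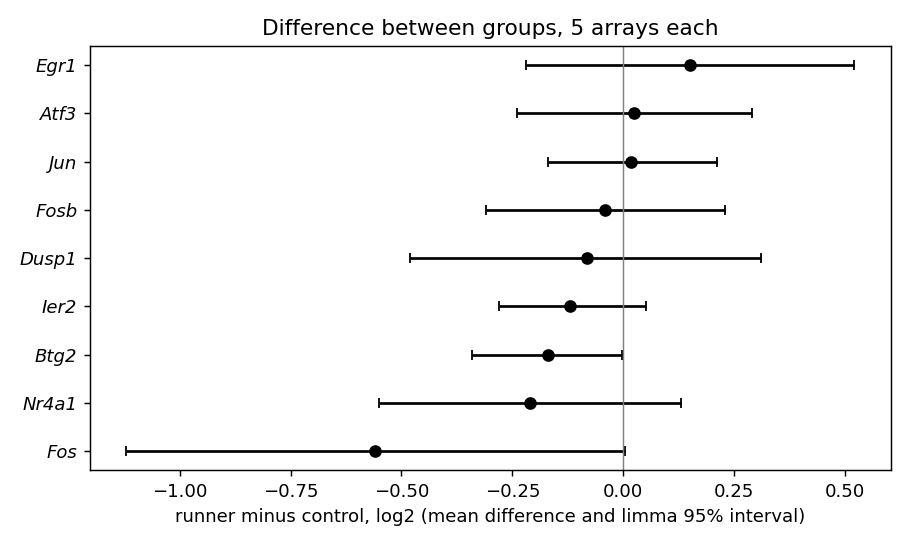
Log2 difference, runner minus control, of each measured immediate early gene, with points at the difference of means and bars at the 95% interval of the limma fit (5 arrays per group). The intervals of 8 genes include 0, that of Btg2 ends at -0.004, and Fos has the widest, from -1.12 to 0.0046.

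Fos, the AP-1 subunit most often used as a mark of recently stimulated cells, had log2 levels of 8.75, 8.39, 8.17, 7.84 and 8.45 in controls 1 to 5. In runners 1 to 5 it stood at 8.20, 8.32, 8.13, 6.98 and 7.17. Runners 4 and 5 lay below every control, 3 controls lay above every runner, and the other 3 runners lay within the range of the controls. The mean was 8.32 ± 0.34 (SD, n = 5) in controls and 7.76 ± 0.63 in runners, a log2 difference of -0.56 ± 0.26 (SE), or 1.47-fold lower, with a limma p of 0.0516 and an adjusted p of 0.699. From control 1, the highest array, to runner 4, the lowest, the Fos level spanned 1.77 log2 units, a 3.42-fold range.

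Fosb, a Fos relative that also pairs with Jun proteins, did not follow Fos. Its log2 levels were 6.12, 6.22, 6.11, 5.85 and 6.41 in controls and 5.73, 6.44, 6.15, 6.16 and 6.02 in runners. Runners 4 and 5, which were lowest for Fos, sat among the controls for Fosb, and both the lowest array (runner 1) and the highest (runner 2) were runners. The log2 difference was -0.041 ± 0.13 (SE; limma adjusted p = 0.968).

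Jun, the partner with which Fos proteins bind DNA as AP-1, had log2 levels of 7.24, 6.99, 6.82, 6.74 and 6.92 in controls. The runners lay at 7.0, 6.84, 7.02, 6.89 and 7.06, all within the range of the controls. The log2 difference was 0.018 ± 0.088 (SE; limma adjusted p = 0.981), and its 95% interval, from -0.17 to 0.21, bounds the change of Jun more tightly than that of Fos. Atf3, a stress-induced factor that can pair with Jun, stood at 6.07, 6.18, 6.17, 5.95 and 5.74 in controls and at 6.04, 5.69, 6.07, 5.99 and 6.44 in runners on the log2 scale. Both its lowest value (runner 2) and its highest (runner 5) came from runners, and the log2 difference was 0.023 ± 0.12 (SE; limma adjusted p = 0.983).

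Egr1, a zinc finger factor induced through serum response factor, moved against Fos on the arrays where Fos was lowest. Its log2 levels were 7.89, 7.55, 7.34, 7.36 and 7.67 in controls and 7.42, 7.57, 7.35, 8.31 and 7.92 in runners. Runners 4 and 5 lay above every control, and runners 1, 2 and 3 lay within the controls. The mean was 7.56 ± 0.23 (SD, n = 5) in controls and 7.71 ± 0.40 in runners, a log2 difference of 0.15 ± 0.17 (SE) with a 95% interval from -0.22 to 0.52 (limma adjusted p = 0.878). The difference rested on runner 4, without which it was 0.0021, and it was 0.31 without the arrays numbered 1 of both groups (limma adjusted p = 0.472).

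Nr4a1, an orphan nuclear receptor also called Nur77, was at log2 levels of 9.11, 9.08, 8.71, 8.31 and 8.99 in controls. The runners lay at 8.51, 8.89, 8.53, 8.92 and 8.31. The groups overlapped, with 3 controls above every runner, and runners 4 and 5 lay far apart from each other. The log2 difference was -0.21 ± 0.16 (SE), with a 95% interval from -0.55 to 0.13 and a limma adjusted p of 0.799. Ier2, a nuclear protein of the early response, stood at 6.75, 6.44, 6.71, 6.35 and 6.55 in controls and at 6.53, 6.38, 6.47, 6.41 and 6.41 in runners. Its runners spanned 0.15 log2 units and all lay within the 0.39 units that the controls spanned, with a log2 difference of -0.12 ± 0.077 (SE; limma adjusted p = 0.777).

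Btg2, an antiproliferative gene whose product helps to remove the poly(A) tails of messengers, had the smallest p of the members. Its log2 levels were 7.57, 7.45, 7.44, 7.44 and 7.61 in controls and 7.60, 7.21, 7.28, 7.23 and 7.35 in runners. Runners 2 to 5 lay below every control, and runner 1 lay just under the highest control. The mean was 7.50 ± 0.08 (SD, n = 5) in controls and 7.33 ± 0.16 in runners, a log2 difference of -0.17 ± 0.077 (SE), or 1.13-fold lower, with a limma p of 0.0455 and an adjusted p of 0.687. Without runner 1 the log2 difference was -0.24 and the limma adjusted p was 0.0887. Other settings weakened the result. The unadjusted limma p of Btg2 was 0.106 without control 5 or without runner 2, 0.0641 without moderation and 0.0561 with median centring.

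Dusp1, a phosphatase that inactivates MAP kinases and so ends the signal that induces it, stood at log2 levels of 8.66, 8.43, 8.02, 8.07 and 8.33 in controls. In runners it was at 8.29, 8.87, 8.21, 7.98 and 7.76. Runner 2 lay above every control, and runners 4 and 5, the low arrays of Fos, lay below every control. The log2 difference was -0.083 ± 0.18 (SE; limma adjusted p = 0.947), with a 95% interval from -0.48 to 0.31.

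**Figure D2:**
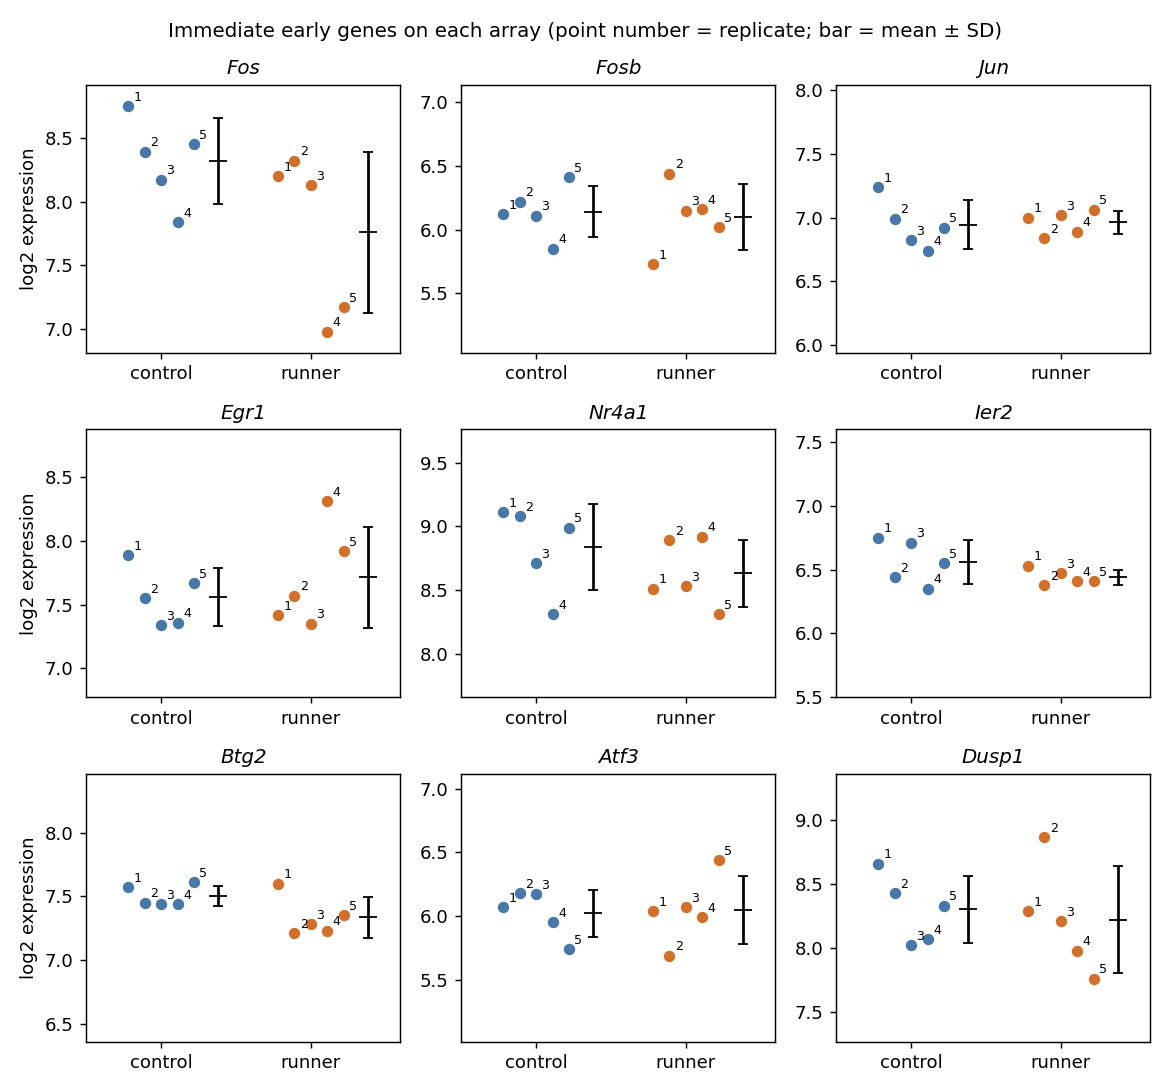
Log2 expression of the 9 measured members on each array, with the replicate number beside each point and bars at the group mean ± SD (n = 5), on axes of equal height that differ in position. Runners 4 and 5 are at 6.98 and 7.17 for Fos and at 8.31 and 7.92 for Egr1, outside the controls in both panels and on opposite sides.

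The mean log2 level of the 9 members on an array was 7.57, 7.41, 7.28, 7.10 and 7.41 in controls and 7.26, 7.36, 7.25, 7.21 and 7.16 in runners. All 5 runners lay within the range of the controls, and the difference of means was -0.11 ± 0.085 (SE), given as a description. Runner 4, with the lowest Fos and the highest Egr1 of all arrays, had a mean of 7.21, inside the range of the controls.

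Several members varied widely between arrays of 1 group. The within-group SD of Fos was 0.51 log2 units, larger than that of 99.6% of all genes. Dusp1 (0.35, above 98.5% of genes), Egr1 (0.32, above 98.0%) and Nr4a1 (0.30, above 97.5%) also lay among the 5% of genes with the widest spread. Fosb and Atf3, both at 0.23, lay among the widest 10%. Jun (0.15), Btg2 (0.13) and Ier2 (0.13) lay nearer to the median gene, whose SD was 0.12. All 9 members had a mean level above the median of all genes.

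**Figure D3:**
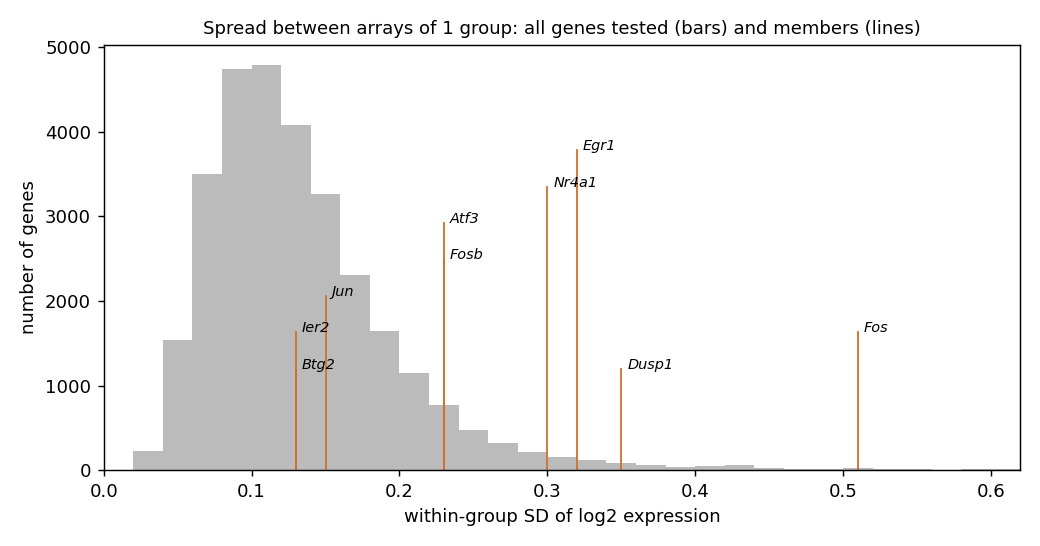
Number of genes (bars) by within-group SD of log2 expression over all 29766 genes, with vertical lines at the SD of each member, whose heights carry no value. Genes with an SD above 0.62 lie beyond the axis, and Fos at 0.51, Dusp1 at 0.35, Egr1 at 0.32 and Nr4a1 at 0.30 lie in the right tail beyond the 95th percentile at 0.25.

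Fos and Dusp1 had the highest r of all pairs, and no pair of members passed the test once all pairs were counted. Over the 36 pairs of members, Pearson's r across the 10 arrays was positive for 26 and negative for 10, from -0.62 to 0.76, with a median of 0.20. The median was 0.01 without control 1, 0.11 without control 4 and 0.22 to 0.28 without any one of the other arrays. By permutation (100000 resamples, two-sided), 2 pairs had an unadjusted p under 0.05 and 0 an adjusted one, with a smallest adjusted p of 0.406. By Spearman's rho, 4 pairs had an unadjusted p under 0.05 and 0 an adjusted one, with a smallest adjusted p of 0.0749. The median r was 0.22 when each array was taken as its deviation from its group mean.

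For Fos and Dusp1, r was 0.76 (permutation p = 0.0113, adjusted 0.406) and rho 0.87 (permutation p = 0.00208, adjusted 0.0749). Without runners 4 and 5, the arrays farthest from the median of Fos, r was 0.66. For Fos and Fosb r was 0.25. Motif content was not tested against any of these values. For Fosb and Nr4a1, r was 0.67 (permutation p = 0.035, adjusted 0.463) and rho 0.66 (permutation p = 0.0437, adjusted 0.365), and r was 0.72 without runners 1 and 2. For Nr4a1 and Dusp1, r was 0.63 and rho 0.62, with r at 0.41 without control 4 and runner 5, and neither adjusted permutation p passed (0.463 and 0.365). The lowest r, -0.62 for Atf3 and Dusp1, rested on runners 2 and 5, without which r was 0.05.

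The relation of Fos to Egr1 turned on runners 4 and 5. Over all 10 arrays r was -0.54 (permutation p = 0.103, adjusted 0.463) and rho was -0.04 (permutation p = 0.918, adjusted 0.919). Without those 2 arrays, which are the farthest from the median of Fos, r was 0.91 over the other 8. On the other 8 arrays Egr1 was thus high where Fos was high, with control 1 highest for both. Runners 4 and 5 paired the lowest Fos with the highest Egr1. Leaving them out removed the arrays that departed from the relation, so no conclusion is drawn from the r of 0.91. The same arrays decided the pair of Fos and Nr4a1, with r at 0.48 over all arrays (permutation p = 0.174, adjusted 0.521) and rho at 0.70 (permutation p = 0.0306, adjusted 0.365). Its r was 0.90 without runners 4 and 5 and 0.84 without runner 4 alone (exact permutation p = 6.34e-05, adjusted 0.00228 over the 36 pairs). Runner 4 had the lowest Fos with an Nr4a1 level of 8.92, so leaving it out removed an array that departed from the relation. That p-value does not cover the choice of the array left out, and no conclusion is drawn from it. Pairs share arrays and members, so they are not independent of each other.

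**Figure D4:**
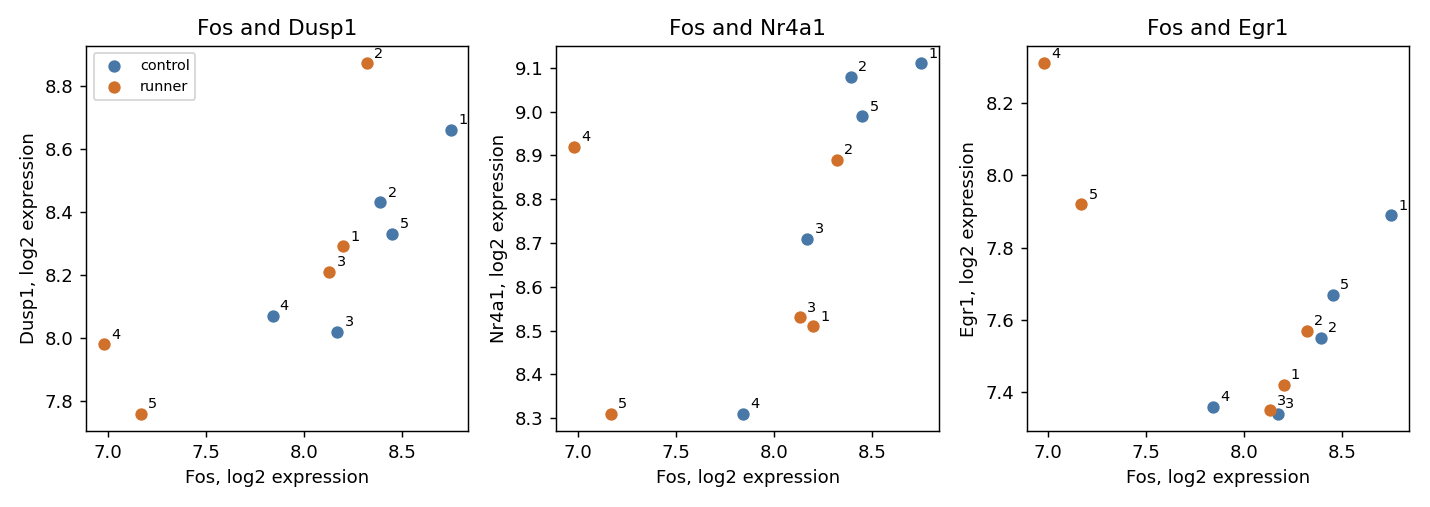
Log2 expression of Dusp1, Nr4a1 and Egr1 (vertical axes) against that of Fos (horizontal axes) on the 10 arrays, coloured by group and numbered by replicate. Runners 4 and 5 continue the rising cloud for Dusp1 (r = 0.76) and lie above it on the left for Egr1. For Egr1 r is -0.54 with them and 0.91 without them, the latter after removal of the arrays that depart from the relation.

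Genes outside the members shared each side of this pattern. They were picked after their values were seen and are given as a description over 10 arrays of shared tissue. Npas4, a transcription factor gene that neurons induce with activity, was at log2 levels of 6.52, 6.20, 5.98, 5.91 and 6.37 in controls and 5.89, 6.85, 6.09, 5.36 and 5.39 in runners. Like Fos it was lowest on runners 4 and 5, and like Dusp1 it was highest on runner 2. Its r was 0.92 with Dusp1 (rho 0.89) and 0.87 with Fos (rho 0.84). Of the other 29765 genes, 5 (0.0168%) were at least as close to Dusp1 and 11 (0.037%) to Fos, while Dusp1 ranked among 144 (0.484%) for Fos. The log2 difference of Npas4 between groups was -0.28 ± 0.24 (SE; limma adjusted p = 0.822).

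Egr3, a zinc finger relative of Egr1, stood with Egr1. Its log2 levels were 5.85, 5.90, 5.81, 5.73 and 5.83 in controls and 5.80, 6.02, 5.52, 6.53 and 6.30 in runners. Runners 4 and 5 were again the highest arrays, and they were so for each of the 3 probe sets of Egr3, with levels of 6.40 and 6.33 by the second and 6.23 and 6.14 by the third. Its r with Egr1 was 0.86 (rho 0.83), a value that 14 of the other genes (0.047%) reached, and its r with Fos was -0.73 (rho -0.12). Egr2, another relative, had an r of 0.80 with Egr1 (rho 0.65), with its highest log2 level, 6.79, on runner 4 and 6.47 on runner 5, a level that controls 1 and 2 and runner 1 also reached. Nr4a2, a relative of Nr4a1, had an r of 0.79 with Nr4a1 (rho 0.81). Arc, whose messenger is sent to active synapses, did not set runners 4 and 5 apart, with log2 levels of 5.92 and 5.82 on them and 5.76 to 5.89 in controls.

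**Figure D5:**
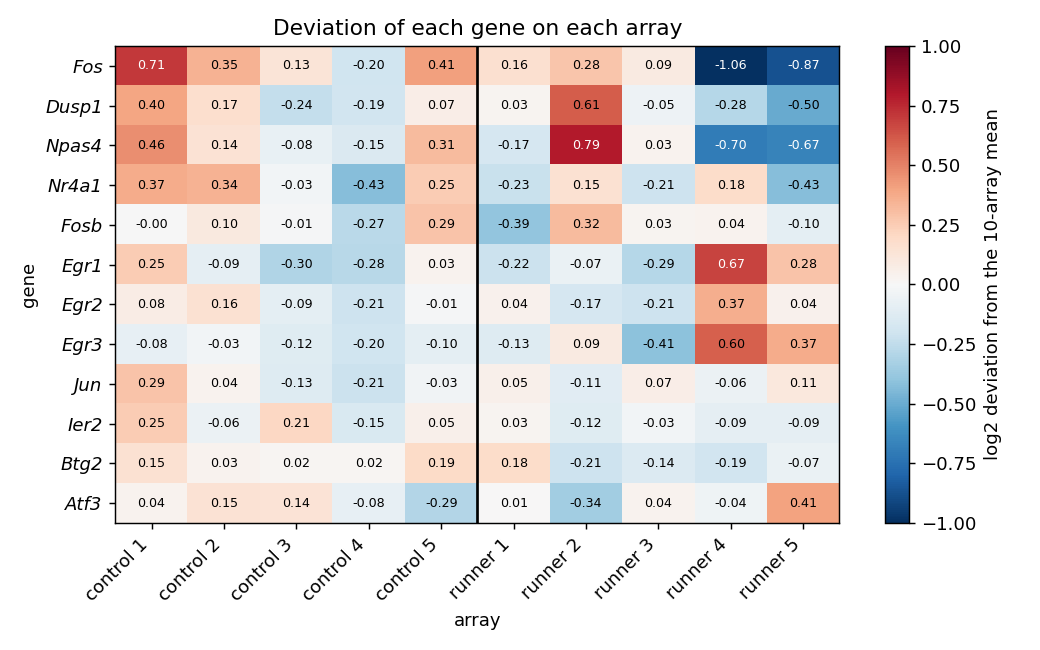
Log2 deviation of each gene (rows) on each array (columns) from its mean over the 10 arrays, printed in each cell, with a colour scale that ends at 1 in either direction and a black line between controls and runners. On runners 4 and 5, Fos (-1.06 and -0.87) and Npas4 (-0.70 and -0.67) are below their mean while Egr1 (0.67 and 0.28) and Egr3 (0.60 and 0.37) are above it.

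Among the other genes, ranked without predicted and non-coding symbols, none tracked all the members closely. The 8 genes outside the list with the highest mean r with the 9 members, taken on deviations from the group means over 10 arrays, were Olfr1220 and Mab21l3 (0.47 each), Adamts13, Try4, Gata5, Clstn1 and Tnfrsf18 (0.46 each) and Tmem92 (0.45). For Clstn1, a synaptic membrane protein gene, r with single members ran from 0.16 to 0.88. Each of these values exceeded the mean r of any member with the other members, which was highest for Jun (0.32), Nr4a1 (0.28) and Ier2 (0.25), 0.20 for Fos, 0.19 for Dusp1 and 0.05 for Egr1. It was lowest for Atf3, at -0.14. The 8 were the highest of all genes searched, and the members were not selected for their r.

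Genes related to the members by family or pathway were counted from 9 lists. Of their 90 genes 89 were measured, 51 higher and 38 lower in runners, with a median log2 difference of 0.025, and 0 passed an adjusted p under 0.05 in limma. At an unadjusted p under 0.05, 16 were higher, 7 of them from the glucocorticoid-induced list, and 2 were lower, where 3.21% of all genes were higher and 3.92% lower. The medians of the AP-1 (-0.032 to 0.034), EGR, NR4A and KLF (-0.056 to 0.0089), BTG, TOB and ZFP36 (-0.088 to 0.013), neuronal activity (-0.0053 to 0.081) and ATF4 (-0.044 to 0.042) lists changed sign when single arrays were left out. Without runner 1, Angptl4 of the glucocorticoid-induced list passed. The genes named from each list are those with its smallest p-values.

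Of the 9 AP-1 relatives 5 were higher and 4 lower, with a median log2 difference of 0.0012. Fosl2, a further Fos relative, was higher by 0.16 ± 0.065 (SE; limma adjusted p = 0.652), with 4 runners above every control, and Batf differed by -0.086 ± 0.07. Of the 11 EGR, NR4A and KLF relatives 3 were higher and 8 lower, with a median of -0.030, and 0 had an unadjusted p under 0.05. Egr3 (0.21 ± 0.15) and Egr4 (-0.10 ± 0.074) came nearest, in opposite directions.

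Of 18 other early response genes 13 were higher and 5 lower, with a median of 0.062, and an unadjusted p under 0.05 was reached by 2 of the higher and 1 of the lower genes, against 3.21% higher and 3.92% lower over all genes. The lower one, named after its value was seen, was Rgs2, a regulator of G protein signalling (-0.27 ± 0.12). Rhob, a small GTPase gene, was higher by 0.18 ± 0.054 (SE; limma adjusted p = 0.592), and all 5 runners lay above every control. Trib1, a pseudokinase gene, was higher by 0.18 ± 0.067 (limma adjusted p = 0.607). Of 7 relatives of Btg2 and of the messenger-decay genes of the ZFP36 family, 2 were higher and 5 lower, with a median of -0.038. Btg1, the closest relative of Btg2, was higher in runners by 0.26 ± 0.11 (limma adjusted p = 0.663), opposite in sign to Btg2. Without runner 1 the difference of Btg1 was 0.35 (limma adjusted p = 0.0857). Tob2 was higher by 0.18 ± 0.099.

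Of 8 further MAP kinase phosphatases 5 were higher and 3 lower, with a median of 0.030. Dusp5, which acts on ERK in the nucleus, was higher by 0.26 ± 0.099 (limma adjusted p = 0.623) and Dusp2 differed by -0.12 ± 0.068. Without runner 1 the difference of Dusp5 was 0.34 (limma adjusted p = 0.0756). Of 9 neuronal activity genes 5 were higher and 4 lower, with a median of 0.044, and 3 were higher at an unadjusted p under 0.05, as were 3.21% of all genes. Scg2, a secretory granule protein gene, was higher by 0.40 ± 0.091 (limma adjusted p = 0.433) with all 5 runners above every control, and Homer1, a scaffold gene of synapses, by 0.34 ± 0.11 (limma adjusted p = 0.604). Npas4 and Arc, of the same list, were among the 4 that were lower.

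Of 10 upstream SRF and CREB factors 6 were higher and 4 lower, with a median of 0.070. Creb1, which encodes CREB itself, was higher by 0.15 ± 0.062 (limma adjusted p = 0.65) and Crem, its relative, by 0.13 ± 0.063. Of the 8 measured ATF4 and stress partners, with Hspa1b not measured, 3 were higher and 5 lower, with a median of -0.012. Atf4, which induces Atf3 under stress, differed by -0.18 ± 0.078 (limma adjusted p = 0.671), and Gadd45a, a growth arrest gene, by -0.14 ± 0.093.

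The 9 glucocorticoid-induced genes, counted because Dusp1 is itself induced by glucocorticoids, were all higher in runners, with a median log2 difference of 0.33. Of these, 7 had an unadjusted limma p under 0.05, where 3.21% of all genes were higher at that p. The list was chosen with earlier results of these data known, so its count is given as a description. Angptl4, a lipoprotein lipase inhibitor gene, was higher by 0.33 ± 0.054 (SE; limma adjusted p = 0.141), and Cdkn1a, the cell cycle inhibitor p21, by 0.32 ± 0.067 (limma adjusted p = 0.37). Angptl4 passed without runner 1 (limma adjusted p = 0.0487), with array weights (0.0476) and without the arrays numbered 1 of both groups (0.0423), and its adjusted p was 0.0805 to 0.57 under the other alternatives. All 5 runners lay above every control for both. Dusp1, at -0.083 ± 0.18, had no such shift, although its interval up to 0.31 is wide. Adipocyte markers were also higher in runners, 6 of 6 by direction and 4 of them at an unadjusted limma p under 0.05. Their mean log2 level was 5.11 to 5.48 in controls and 5.53 to 6.02 in runners, and the dimmest, Lep, had a mean of 4.14. Whether these markers and the glucocorticoid-induced genes varied together across arrays was not tested, nor was the part of adipocytes in the shift of those genes.

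Markers of several tissues and cell types, inner ear among them, were followed on every array, which matters for members that many cell types express. A list name does not show which tissue the RNA came from. The mean log2 level of 6 brain markers was 9.14 to 9.35 in controls and 9.11 to 9.53 in runners (4 higher, 2 lower). Of these 1, Syt1, was higher at an unadjusted limma p under 0.05, as were 3.21% of all genes. The mean of 6 muscle markers was 8.24 to 9.01 and 8.22 to 9.24, with 0 at that p. Both means lay above that of the hair cell markers on every array, and which tissue gave the values of the members was not tested. The 6 hair cell markers, at a mean of 5.06 to 5.24 and 4.79 to 5.25, were all lower in runners, 2 of them at an unadjusted p under 0.05, with a median log2 difference of -0.18. Their mean lay below the median over all genes on every array, and the dimmest, Chrna9, had a mean of 3.89. How near these values are to background was not assessed. Osteoblast markers (7 of 7 lower, 7.93 to 8.20 in controls and 7.40 to 7.79 in runners) and B lineage markers (5 of 5 lower, 6.49 to 6.93 and 5.98 to 6.48) had lower means on every runner than on any control. An adjusted p under 0.05 in limma was reached by 2 of the osteoblast and 0 of the B lineage markers, although all 5 of the latter had an unadjusted p under 0.05. The macrophage, neutrophil, erythroid and endothelial lists were lower for all of their measured markers, and the stria vascularis list for 5 of 6. An unadjusted limma p under 0.05 was reached by 4 macrophage, 1 neutrophil, 2 erythroid, 0 endothelial and 4 stria vascularis markers. Of all genes, 3.92% were lower at that p. The neutrophil mean of runner 1 (10.06) lay above every control (at most 9.96). On runners 4 and 5, the arrays on which Fos and Egr1 parted, the brain mean was 9.53 and 9.28, the muscle mean 8.43 and 8.83 and the stria vascularis mean 6.54 and 6.66. Runner 4 was thus the highest array for brain markers and shared the lowest stria vascularis mean with runner 3, while runner 5 was at neither extreme, and the part of any marker list in the Fos and Egr1 pattern was not tested. The median log2 value over all genes was 5.354 on runner 4, the lowest of the arrays, and 5.408 on runner 5, where the others lay between 5.367 and 5.429.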

How the data were processed

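Inner ear tissue was frozen and ground, and its total RNA was biotinylated with an Affymetrix WT PLUS kit, per the labels. The deposited values are log2 expression per probe set. RMA and Partek are named per the submitters' processing notes, with the chip, build and filters not given in the sources used here. RMA makes array distributions nearly equal and so hides a shift of most genes, and precision is limited by the number of arrays.

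Of 39295 probe sets 30130 named 1 symbol, 2146 several and 7019 none. Symbols were updated for 827 through RefSeq (GRCm38.p6), and the brightest probe set was kept for the 294 genes with several, leaving 29766 genes. The groups were compared with limma (version 3.58.1, R 4.3.3; lmFit and eBayes with a group term, two-sided), with Benjamini-Hochberg adjustment over all genes, a procedure tested on simulated data. Pair correlations used permutation p-values adjusted over the 36 pairs. Named genes were the members, the 2 smallest p-values of each related list, and the 8 genes most like the members, with predicted and non-coding symbols left out of that ranking. Npas4, Egr2, Nr4a2, Arc and Rgs2 were added after their values were seen. Members, lists and alternatives (filter, moderation, normalization, weights, probe sets, replicate block, arrays left out) were chosen with earlier results of these data known.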

Additional observations from a re-analysis of the deposited data

Results flagged for a closer look

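Gadd45a, a growth arrest gene of the stress list, had a log2 level of 7.16 on control 3, set apart from the next control at 6.98 by 0.72 of the range of the 5 controls, just past the critical value of 0.71. It was the 1 value set apart in this way among 60 groups of 5 arrays examined, and chance alone marks about 1 in 20 groups.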

How the results depend on the processing

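Over 19 alternatives to the fit, 0 of the 9 members passed an adjusted p under 0.05 in limma under any, with a smallest adjusted p of 0.0887 for Btg2 without runner 1. The direction turned in 10 of 171 member differences, all near 0. With each array left out in turn, the log2 difference ran from -0.13 to 0.052 for Fosb, from -0.032 to 0.093 for Jun, from -0.076 to 0.11 for Atf3 and from -0.25 to 0.034 for Dusp1, and it was 0.048 for Fosb without the arrays numbered 1 of both groups. Fos kept its direction, from -0.70 to -0.37. The mean over the members ran from -0.17 to -0.06. The count of members lower at an unadjusted p under 0.05, which was 1, was 0 without moderation, 0 with median centring, 2 with array weights and 2 with the replicate block, and from 0 to 4 with each array left out. The count of pairs passing an adjusted p ran from 0 to 1. Angptl4 passed with array weights (0.35, limma adjusted p = 0.0476), without runner 1 (0.32, 0.0487) and without the arrays numbered 1 of both groups (0.32, 0.0423). Over all genes, the 2 calls became 15, 99 and 426 under these same settings. Replicate numbers were not taken as pairs in the main fit. The correlation of deviations of same-numbered arrays was -0.25, 0.06, 0.28, 0.07 and -0.19 for numbers 1 to 5. Arrays with different numbers were not compared in this way, so these values cannot decide whether the numbers pair the arrays. With the replicate block, Fos had a limma p of 0.0116 and an adjusted p of 0.739.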
